A study of Drosophila melanogaster with 2 samples.

Results

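The vacuolar ATPase genes of Drosophila melanogaster were examined for peaks of castor, a zinc-finger transcription factor known from the temporal series of embryonic neuroblasts. They were taken as the protein-coding genes of the Ensembl dm6 annotation whose symbol starts with Vha, which gave 33 genes of 13968 on the chromosome arms. A gene was counted as having a peak when the conservative list held a peak whose summit fell inside the gene or no more than 2 kb away. That list combines the replicates under a threshold on the irreproducible discovery rate (IDR), which scores how well a peak's rank repeats between replicates. The lists of a single replicate carry their own IDR values, which do not compare the 2 replicates. Castor fused to eGFP was immunoprecipitated with an anti-GFP antibody from whole cas-GFP embryos aged 0 to 24 h, a strain made by an insertion that targets cas. The chromatin was sonicated to fragments of 200 to 800 bp, and the single group held 2 biological replicates. Peaks therefore average over all embryonic tissues and stages in that interval, and a peak in few cells cannot be told apart from weak binding in many. With no second group, every comparison below is a count beside the same count over all genes, without a test.

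The vacuolar ATPase is a rotary proton pump. Its peripheral V1 sector hydrolyses ATP and turns a rotor in the membrane-embedded V0 sector, which moves protons into lysosomes, endosomes and synaptic vesicles, or across the apical membrane of transporting epithelia such as the Malpighian tubule. Many subunits are encoded in the fly by several paralogues, of which usually a single copy is used broadly and the others are restricted to tissues such as the testis or gut. In Drosophila, the factor Mitf is known to bind E-box sites of the form CACGTG and to activate vacuolar ATPase genes.

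The conservative list placed 10 peaks at 9 of the 33 genes, or 27.3%, against 20.1% of all protein-coding genes under the same rule. The 9 genes were Vha68-1, Vha44, Vha36-1, Vha36-3, Vha14-1, Vha13, Vha100-2, Vha16-5 and VhaPPA1-2. By a rule that asked for a summit within 500 bp of the gene's own transcript start, 5 of 33 genes had a peak, or 15.2%, against 10.7% of all genes. When each summit was given only to the gene with the nearest start, 4 of 33 genes kept a peak, or 12.1%, against 11.2% of all genes. In the list of replicate 1 alone, 5 Vha genes had a peak, or 15.2%, against 14.3% of all genes. In that of replicate 2 alone, 4 did, or 12.1%, against 14.4%, so the share that was above that of all genes in the combined list was below it there. No number of reads comes with these lists, so the depth behind each peak is unknown.

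All 10 summits lay within 500 bp of the transcript start of some protein-coding gene, as did 1109 of the 1879 conservative peaks on the arms, or 59.0%. The median distance to the nearest start was 93.5 bp for the 10 peaks and 236 bp for all peaks. The rule that chose the 10 peaks, in or near genes that are mostly short, bears on both values. Among all peaks in or within 2 kb of any protein-coding gene, 62.4% lay within 500 bp of a start and the median distance was 204 bp. That nearest start belonged to a Vha gene for 4 peaks, at Vha68-1, Vha36-1, Vha13 and Vha100-2. It belonged to another gene for the other 6, which included the strongest peak of the set.

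**Figure D1:**
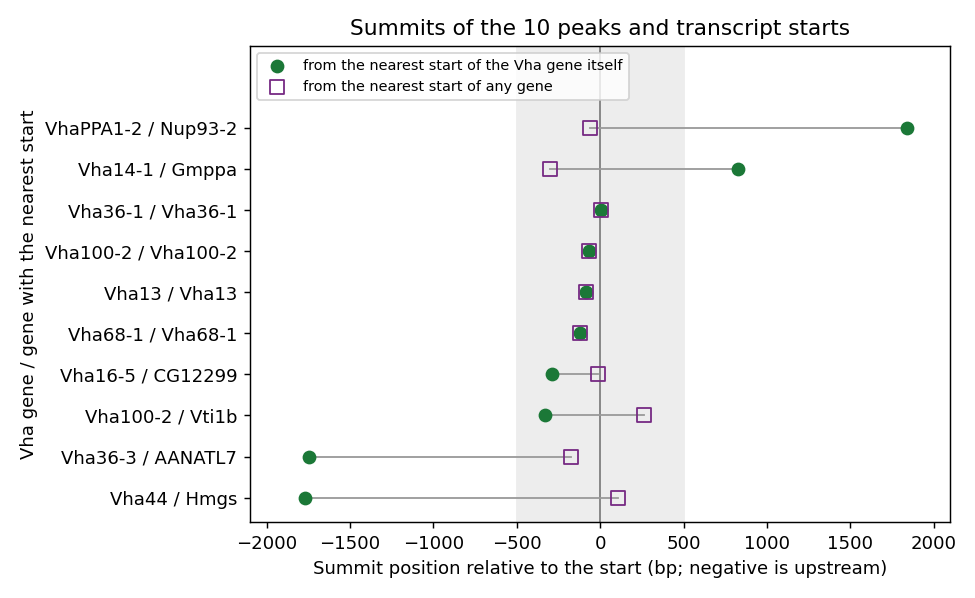
Position of the summit of each of the 10 peaks in bp relative to the nearest start of the Vha gene (green circles) and to the nearest start of any protein-coding gene (open squares), with negative values upstream and the band within 500 bp shaded. Circle and square coincide for the 4 peaks whose nearest start is that of a Vha gene, and every square lies inside the band.

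The genomic sequence around the summits is given for 3 of the 4 peaks whose nearest start is that of a Vha gene. These are at Vha68-1, Vha13 and Vha100-2, and the peak at Vha36-1 is not shown. Vha16-5 is included because it has the strongest peak within 500 bp of a Vha start. Vha55, described further on, is added because its start carries a strong entry that the thresholded lists do not hold. All are from the minus strand of dm6, on which these 5 genes lie, and run 5′ to 3′ toward the gene. Each is the longest stretch, within 50 bases of the summit on either side, that lies outside annotated untranslated regions. They span chr2L:13004177-13004277 for Vha68-1, chr3R:19644419-19644519 for Vha13, chr3R:18399188-18399288 for Vha100-2, chr2L:10737281-10737344 for Vha16-5 and chr3R:12627830-12627907 for Vha55. Capitals mark a match, on either strand, to the E-box core CACGTG, to TATCGA, the core of the DNA replication-related element, or to the A/T-only word ATTTTA.
Vha68-1: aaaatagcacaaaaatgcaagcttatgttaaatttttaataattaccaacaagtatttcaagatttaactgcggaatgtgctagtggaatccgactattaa
Vha13: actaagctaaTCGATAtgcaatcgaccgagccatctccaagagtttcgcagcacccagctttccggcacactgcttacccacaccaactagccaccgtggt
Vha100-2: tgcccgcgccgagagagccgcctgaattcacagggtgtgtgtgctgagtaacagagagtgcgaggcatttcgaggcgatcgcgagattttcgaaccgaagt
Vha16-5: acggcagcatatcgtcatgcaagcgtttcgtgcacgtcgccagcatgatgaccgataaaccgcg
Vha55: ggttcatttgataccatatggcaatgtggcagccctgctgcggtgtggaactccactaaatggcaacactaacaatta
Only the Vha13 sequence holds a searched word, TATCGA, read here on the other strand. The Vha68-1 window is AT-rich, with 28.7% G and C, whereas the windows of Vha13, Vha100-2 and Vha16-5 hold 53.5%, 57.4% and 52.5%.

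Of the catalytic head, 1 of 4 genes had a peak, beside the 20.1% of all genes. Vha68-1 encodes a copy of subunit A, the ATP-hydrolysing subunit. Its gene (FBgn0265262) spans chr2L:13000770-13004107 on the minus strand. The peak at chr2L:13004072-13004381 had a signal of 84.9 in the combined list, where signal is the authors' own peak value in arbitrary units, and this exceeded 56.7% of conservative peaks. The ranked lists, which keep entries below the threshold, gave it 44.5 in replicate 1 and 41.3 in replicate 2. It passed the authors' threshold in replicate 1 but not in replicate 2. The combined −log10 IDR was 3.38, where 2 is the lowest value that the thresholded list admits. The summit was intergenic, 120 bp upstream of the Vha68-1 start and 253 bp upstream of the start of mTor, the Tor kinase gene, which is transcribed away from it and starts 373 bp from Vha68-1. Vha68-1 and mTor thus share this peak.

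The other genes for subunit A had weaker entries. Vha68-2, the copy used broadly, is 91.9% identical to Vha68-1, given here and below as the share of the shorter protein. Its strongest entry within 500 bp of a start lay 67 bp upstream with a signal of 40.1, but its −log10 IDR was 0.563, and the replicate lists gave 13.9 and 26.3. Vha68-3, which starts 178 bp beyond the end of Vha68-2 on the same strand, had a start entry of 7.80. The nearest conservative summit to either gene was the Vha68-1 peak, at 25620 and 22934 bp. Vha68-2 therefore had no peak, while Vha68-1, which was not classed by use, did.

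Vha55 (FBgn0005671, chr3R:12623762-12627829, minus strand) is the only gene for subunit B, the partner of subunit A in the catalytic hexamer. It had no peak in any thresholded list. The combined ranked list nevertheless held an entry at chr3R:12627702-12628011, 28 bp upstream of a Vha55 start, with a signal of 98.8 and a −log10 IDR of 3.73. The pooled ranked list gave 98.8 and 3.48, replicate 1 gave 53.6 and 3.34, and replicate 2 gave 44.6 and 2.28. All 4 values pass the threshold of 2 that the listed peaks meet. Of the 1951 combined ranked entries at or above that value, 71 were not in the conservative list, and the nearest other such entry lay 678793 bp away. The sources used here do not say what removed it. Counted by −log10 IDR alone, 10 of 33 Vha genes had a peak, beside 20.5% of all genes.

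**Figure D2:**
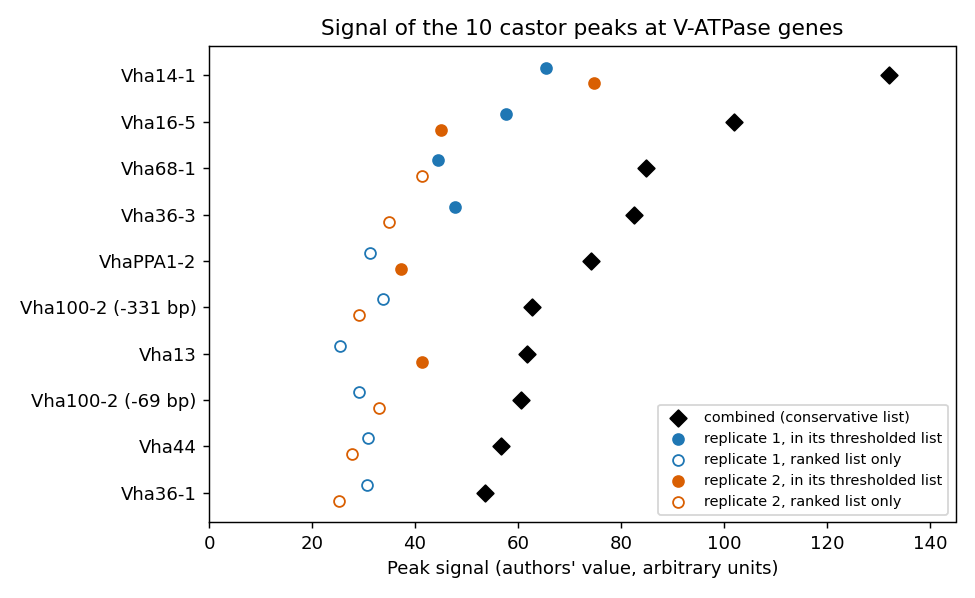
Signal (authors' value, arbitrary units) of each of the 10 peaks in the combined conservative list (diamonds) and of the matching ranked entry in replicate 1 (blue) and replicate 2 (orange), filled where that replicate's thresholded list holds a peak there. Vha14-1 and Vha16-5 are filled in both replicates, and the 4 peaks at Vha100-2, Vha44 and Vha36-1 in neither. No common scale between the lists is stated.

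Of the genes for the stalks and stator of V1, 5 of 9 had a peak by the 2 kb rule, beside the 20.1% of all genes. By a summit within 500 bp of an own start, 2 of 9 did, and by the nearest start also 2. Vha14-1 encodes subunit F of the central stalk and had the strongest peak of the set, at chr2R:15679103-15679412 with a combined signal of 132 and a −log10 IDR of 4.74. The signal was 65.4 in replicate 1 and 74.7 in replicate 2, and the peak passed the threshold in both. The summit did not lie at the Vha14-1 start, however, but 826 bp downstream of it, 168 bp past the end of this short gene. It was 302 bp upstream of the start of Gmppa, a GDP-mannose pyrophosphorylase gene. At the Vha14-1 start itself the combined ranked list held an entry of 14.9, above 16.1% of the genes that have an entry, and neither replicate list held any. Its paralogue Vha14-2, 38.7% identical in protein, had no entry at its start in the combined list or either replicate list.

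Subunit D forms the central shaft. Vha36-1, its broadly used gene, had a peak at chr2R:15541286-15541595 with its summit 6 bp inside the 5′ untranslated region. The combined signal was 53.6, the lowest of the 10, and it exceeded 12.9% of conservative peaks. The replicates gave 30.6 and 25.3, and neither passed the threshold. The start of CG8187 lies 72 bp away in the head-to-head direction. Vha36-3, whose protein is 85.0% identical to that of Vha36-1, had a stronger peak at chrX:2582149-2582458, with 82.6 combined, 47.8 in replicate 1 and 34.9 in replicate 2. It passed in replicate 1 only, since the −log10 IDR in replicate 2 was 0.0804. That summit lay 1744 bp upstream of Vha36-3, in an intron of AANATL7 and 173 bp upstream of an AANATL7 start, and no combined entry lay within 500 bp of a Vha36-3 start. Vha36-2, 37.8% identical to Vha36-1, had no peak, with a start entry of 10.5.

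Vha13 encodes subunit G of the peripheral stalk. Its peak at chr3R:19644314-19644623 had a combined signal of 61.7, with 25.5 in replicate 1 and 41.4 in replicate 2, and passed the threshold in replicate 2 only. The summit was intergenic, 83 bp upstream of the Vha13 start, and the start of the nucleoporin gene Nup58 lies 640 bp from that of Vha13. The pooled list held a further peak at chr3R:19641750-19642059 with a signal of 105, which lay 1113 bp past the Vha13 body in an intron of subdued. Replicate 1 had it at 71.6, above its threshold, and replicate 2 had no entry there. Vha13 was therefore counted in replicate 1 through this peak and not through the peak at its start.

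Vha44 encodes subunit C, which links stator and membrane sector and in yeast is released when V1 detaches from the membrane. Its counted peak at chr2R:16338251-16338560 had a combined signal of 56.8, with 30.9 in replicate 1 and 27.7 in replicate 2, and passed in neither. The summit lay 1769 bp upstream of Vha44, within a 5′ untranslated region of Hmgs, the HMG-CoA synthase gene, 104 bp past an Hmgs start. Another annotated Hmgs start lies 123 bp from that of Vha44, head to head. An entry 70 bp upstream of the Vha44 start had a signal of 43.8 but a −log10 IDR of 1.08. The remaining stalk and stator genes, Vha26 for subunit E and VhaSFD for the regulatory subunit H, had start entries of 13.6 and 18.2 and no peak. The best entry of VhaSFD by −log10 IDR, at 0.737, lay 686 bp past its start with a signal of 27.6.

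In the membrane sector, 1 of 5 genes for subunit a had a peak, beside the 20.1% of all genes. Subunit a carries the channels by which protons reach and leave the rotor, and its isoforms set the pump's location. Vha100-2, the broadly used gene, had 2 peaks, each near an annotated start. The upstream peak at chr3R:18399083-18399392 had a combined signal of 60.5, with 29.1 in replicate 1 and 33.0 in replicate 2, and its summit lay 69 bp before the first start, within a Vti1b intron. The intronic peak at chr3R:18397104-18397413 had 62.8 combined, 33.8 in replicate 1 and 29.2 in replicate 2, and its summit lay 331 bp before the other start. That summit is also 264 bp inside Vti1b, a SNARE gene on the opposite strand whose start is 67 bp from the internal Vha100-2 start. Neither peak passed in a replicate alone. Vha100-4 lies 517 bp beyond the end of Vha100-2 on the same strand and had a start entry of 29.9 with a −log10 IDR of 0.517.

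Vha100-1, the isoform known for its role at fly synapses, had no peak. Its start entry lay 85 bp upstream with a signal of 31.8 and a −log10 IDR of 0.136, with 19.6 in replicate 1 and 10.2 in replicate 2. The start of dgt6 lies 221 bp away head to head. Vha100-3 had a start entry of 19.7. Vha100-5 had none in the combined list, and its best entry of 39.2 lay 776 bp past the start with a −log10 IDR of 0.769. No neuronal subset can be separated in these whole-embryo lists.

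Of the rotor genes, which encode the proton-carrying subunits c and c″, 2 of 7 had a peak, beside the 20.1% of all genes. By the nearest start, 0 of 7 did. Neither of the 2 counted genes is the broadly used copy. Vha16-5 had a peak at chr2L:10737176-10737485 with 102 combined, 57.7 in replicate 1 and 45.1 in replicate 2, above the threshold in both. The summit was 288 bp upstream of Vha16-5 and 14 bp upstream of CG12299, which starts 302 bp away on the other strand. Vha16-1, the broadly used copy, which is 67.9% identical to Vha16-5, had no peak. Its start entry, 132 bp upstream, had a signal of 45.4 and a −log10 IDR of 1.29, and its best entry by −log10 IDR, at 1.30, lay 5662 bp past the start with a signal of 41.6. The start entries of Vha16-2, Vha16-3 and Vha16-4 were 18.3, 29.9 and 24.8.

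For subunit c″, VhaPPA1-2 was counted and its broadly used neighbour VhaPPA1-1 was not. The peak at chr3R:14898280-14898589 had 74.2 combined, 31.3 in replicate 1 and 37.3 in replicate 2, and passed in replicate 2 only. Its summit lay 1842 bp downstream of the VhaPPA1-2 start, 1171 bp past its body, and 63 bp upstream of the nucleoporin gene Nup93-2. The same summit was 3895 bp from VhaPPA1-1. VhaPPA1-1 instead had an entry 171 bp past its own start with a signal of 46.4 and a −log10 IDR of 1.50, the highest below the threshold among the Vha genes without a peak. The entry at the VhaPPA1-2 start was 29.9.

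None of the 2 genes for subunit d, the 4 for subunit e or the 2 accessory genes had a peak, beside the 20.1% of all genes. VhaAC39-1, the broadly used subunit d gene, had a start entry of 3.10, the lowest of all, and VhaAC39-2 had no combined ranked entry in its body or within 2 kb. The subunit e genes ranged from 4.73 at VhaM9.7-a to 33.7 at VhaM9.7-b. VhaAC45, an assembly subunit, had 14.9, and VhaAC45RP had none. ATP6AP2, an accessory subunit whose older symbol is VhaM8.9 and which the symbol rule leaves out, did have a peak, with an entry at its start of 66.1 and a −log10 IDR of 2.64.

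The 2 kb limit decided several of these counts. The peaks farthest from a counted gene were those of Vha44 and Vha36-3, at 1769 and 1744 bp. VhaSFD missed by the least, with a summit 2042 bp from its body whose nearest start is that of Cyt-c-p, followed by VhaM9.7-a at 3360 bp, VhaPPA1-1 at 3895 bp and VhaAC45RP at 4434 bp.

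**Figure D3:**
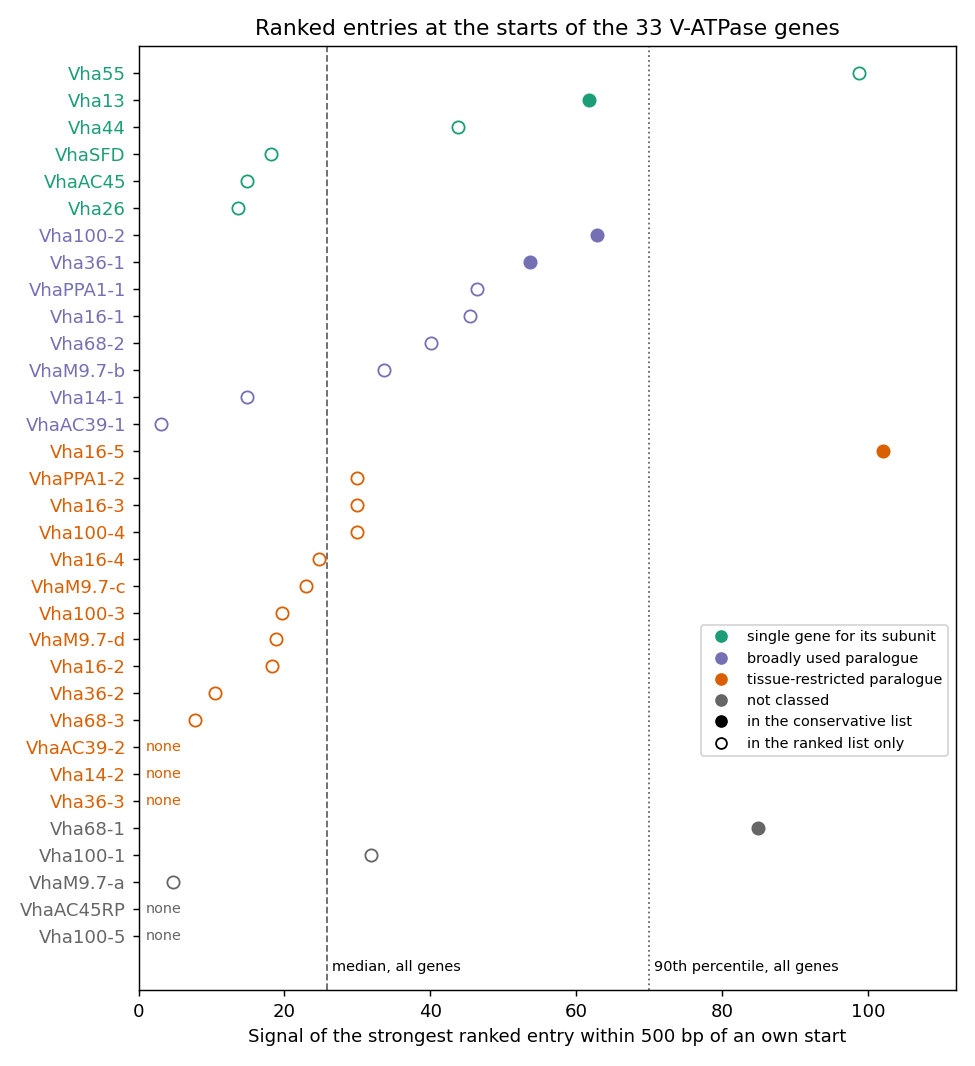
Signal (authors' value, arbitrary units) of the strongest combined ranked entry within 500 bp of a start of each of the 33 genes, coloured by use and filled where the entry is a peak of the conservative list; "none" marks genes without an entry, and the lines mark the median (25.9) and the 90th percentile (70.0) over all genes. Vha16-5, Vha55 and Vha68-1 lie above the 90th percentile.

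At the starts themselves, 28 of 33 genes had some combined ranked entry within 500 bp, or 84.8%, against 76.2% of all genes. The median signal of the strongest was 29.9, against 25.9 over all genes with an entry, and 15 of the 28 lay above that value. Above the 90th percentile of all genes, 70.0, stood Vha16-5 at 102, Vha55 at 98.8 and Vha68-1 at 84.9. By use, as known from general fly expression data and not measured here, the broadly used paralogues had a median of 42.8, the tissue-restricted ones 22.9 and the genes that are single for their subunit 31.0. These medians cover only genes with an entry: 8 of 8 broadly used, 11 of 14 tissue-restricted and 6 of 6 single genes. The ranges overlapped, from 3.10 to 62.8 in the broad class and from 7.80 to 102 in the restricted class. Peaks were called at 3 of 8 broadly used, 3 of 14 tissue-restricted and 2 of 6 single genes, and at 1 of the 5 genes left unclassed, against the 20.1% of all genes. In the list of either replicate alone, and in the upper 50% of peaks by signal, the order of the classes turned, with 1 of 8 broadly used and 2 of 14 tissue-restricted genes. For the 3 restricted genes, Vha36-3, Vha16-5 and VhaPPA1-2, the nearest start was another gene's. Each of these classes is too small for a share to be read closely.

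The genes with a peak were also compared by their neighbours. Among the Vha genes with a peak, 8 of 9 had a head-to-head neighbour, meaning an opposite-strand gene that starts within 1000 bp upstream and is transcribed away. Among those without a peak, 6 of 24 did. Read the other way, 8 of 14 head-to-head Vha genes had a peak, or 57.1%, and 1 of the 19 others, VhaPPA1-2, or 5.26%. Over all protein-coding genes the shares were 30.8% of head-to-head genes and 14.0% of the rest. This split was chosen after the values were seen and is a description only. The counted summits of Vha14-1, Vha44 and Vha36-3 lay 826, 1769 and 1744 bp from the gene's own start, not between the head-to-head starts. Those of Vha100-2, 331 and 69 bp before its starts, also lay outside that interval, as did that of Vha36-1, 6 bp past its start. Only the summits of Vha68-1, Vha13 and Vha16-5 lay between the paired starts. The 6 head-to-head genes without a peak were Vha55, Vha26, Vha100-1, VhaM9.7-a, VhaM9.7-b and VhaAC45. Of these, Vha55 had the unlisted entry of 98.8 at its start. By the rule of 500 bp from an own start, 5 of 14 head-to-head Vha genes and 0 of 19 others had a peak, against 19.8% and 5.52% over all genes. The classes of use differed in such neighbours, with 4 of 8 broadly used, 2 of 14 tissue-restricted and 5 of 6 single genes. Over all genes, the median start entry was 32.0 for head-to-head genes and 23.0 for the rest. The class medians above therefore do not separate use from neighbour.

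**Figure D4:**
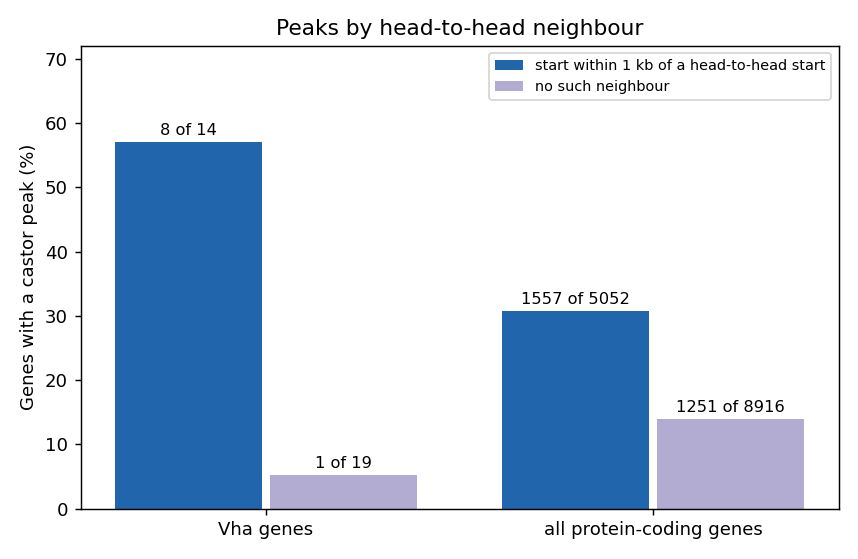
Percentage of genes with a castor peak in the body or within 2 kb, for genes whose start lies within 1 kb of a head-to-head start (dark bars) and for the rest (light bars), with gene counts above each bar. The shares are 57.1% and 5.26% for Vha genes and 30.8% and 14.0% for all protein-coding genes. A counted summit need not lie between the head-to-head starts.

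The 10 peaks had a median percentile of signal of 37.2 in the conservative list, below its middle, and ranged from 12.9 to 82.3. Their combined signals ran from 53.6 to 132 with a median of 68.5, against 77.3 for all conservative peaks, and all 10 were also in the pooled list. Every peak was 310 bp wide, as were 90.8% of all peaks. Only the peaks at Vha14-1 and Vha16-5 overlapped a thresholded peak of both replicates, 2 of 10, whereas 41.1% of all conservative peaks did. Those at Vha68-1 and Vha36-3 overlapped replicate 1 alone, those at Vha13 and VhaPPA1-2 replicate 2 alone, and the 4 at Vha100-2, Vha44 and Vha36-1 neither. Those 4 rest on the combined ranking.

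Words were searched on both strands. Within 50 bases of the summits on either side, TATCGA was found at 1 of 10 peaks, against 9.53% of all conservative peaks, and within 100 bases at 4 of 10, with a Wilson 95% interval of 16.8% to 68.7%, against 17.3%. The 4 were those of Vha36-1, Vha14-1, VhaPPA1-2 and Vha13. ATTTTA was found at none of the 10 in either window, with an upper Wilson 95% limit of 27.8%, against 31.5% of all peaks in the narrower window and 47.0% in the wider. These intervals cover counting error only and are not a test against all peaks. CACGTG and its longer form TCACGTGA, as well as TATCGATA, were at 0 of 10 in the narrower window, against 0.958%, 0.0532% and 2.71% of all peaks. TATCGATA contains TATCGA, and TCACGTGA contains CACGTG. The windows averaged 41.5% ± 10.9 G and C (SD, n = 10 peaks), against 35.3% ± 10.6 over all peaks.

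In the promoters, taken as 250 bases before to 50 after the start, CACGTG was found at 3 of 33 Vha genes, Vha44, VhaM9.7-d and VhaAC45RP, or 9.09%, against 4.20% of all genes. Its extended form TCACGTGA was found at Vha44 alone, and at 24 of the 13968 promoters in all. The counted castor summit at Vha44 lies far outside this window. TATCGA was at 9 Vha promoters, or 27.3%, against 27.7%, and TATCGATA at 2, Vha55 and VhaSFD, against 9.36%. ATTTTA was at 18, or 54.5%, against 50.6%, with 11 of the 14 tissue-restricted genes and 4 of the 8 broadly used ones.

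Other genes of the pathway were counted the same way. Of 14 genes for assembly and regulation of the pump, 4 had a peak, or 28.6%. Lamtor3, a subunit of the Ragulator scaffold that ties the pump to Tor signalling, had a signal of 346 with its summit 94 bp upstream. Mustard (mtd), a TLDc-domain gene, had 129. The other peaks were at RagC-D, with 91.4 but nearest to CG30373, and at mTor, which is the Vha68-1 peak. Of 22 lysosomal and autophagy genes, 4 had a peak, or 18.2%. Atg18a had 126 and Atg9 had 111, both at their own starts. cathD had 61.6 near phr, and spin had 49.8 in an intron. Of 15 subunit genes of the mitochondrial F-type ATP synthase, the related rotary enzyme, 2 had a peak, or 13.3%. ATPsynCF6 had 68.2 but nearest to Sec13, and ATPsynE had 57.5 at its own start. These shares stand beside the 20.1% of all genes.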

How the data were processed

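Castor ChIP-seq was done on whole embryos in 1 group of 2 biological replicates. Per the labels and headers, the lists are in dm6 coordinates. Each replicate and the combined data have IDR-ranked entries and IDR-thresholded peaks with a summit, the authors' signal value and the deposited −log10 IDR. The 2 combined ranked lists are not labelled as conservative or pooled. The list that held all 1880 conservative peaks was taken as the conservative (combined) one. The other held 1879 of them and was taken as pooled. The aligner, the peak caller and the scaling of the signal were not given in the sources used here. Nothing states a common scale between lists, so signals were ranked within a list only. Values from different lists are printed and drawn side by side, but are not to be read as levels on 1 scale. Input libraries were not analysed here, and depth is unknown.

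Gene bodies and starts came from the Ensembl release 115 annotation (BDGP6.54), which uses the dm6 sequence; 18 protein-coding genes off the arms were left out. Distances run from the summit, negative upstream. Replicate overlap needed 1 bp. Sequences and translated proteins came from the RefSeq dm6 assembly, and proteins were aligned globally (BLOSUM62, gap costs 11 and 1). Older gene symbols were resolved through the RefSeq gene table, 1 of them in each of 2 related lists. Python 3.11.15, pandas 2.3.3, numpy 2.4.6, Biopython 1.88 and matplotlib 3.10.9 were used, and the assignment of summits to genes was tested on simulated data.

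All 33 genes were accounted for. Each gene with a peak was named, and so were the 5 without a peak that had the highest −log10 IDR. The members, their roles and classes of use, the words and the related lists were chosen with earlier results of these data known, and roles and use come from general knowledge. Alternatives were other lists, thresholds, distances, windows and overlaps.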

Additional observations from a re-analysis of the deposited data

Results flagged for a closer look

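The entry at the Vha55 start stood out because it is in the ranked lists and in no thresholded list, so that no peak count by the main rule uses it. Its combined signal of 98.8 exceeded 68.0% of the conservative peaks.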

How the results depend on the processing

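The 74 recomputed values are counts, shares and percentiles and so have no sign to change. Of these, 43 were labelled as unmoved and 31 as moved. A count was unmoved when it stayed within 1.5 times of the value reported. That limit was for counts only, so the 43 did not all stay that close. They include the share of peaks with TATCGA, which was 1 of 10 in the narrower window and 4 of 10 in the wider. Comparisons did turn: the Vha share fell below that of all genes in replicate 2 alone (12.1% against 14.4%) and with summits in the body only (6.06% against 6.13%), and the broadly used class fell below the tissue-restricted in each replicate list and in the upper 50% of peaks (12.5% against 14.3%). The pooled list and a minimum signal of 10 gave the same 9 Vha genes, or 27.3%, against 22.8% and 20.1% of all genes, and a limit of 5 kb gave 13, or 39.4%, against 29.3%. From the list of 1 replicate alone, Vha genes with a peak numbered 4 to 5, against 2006 and 1992 of all genes, broadly used ones 1 and tissue-restricted ones 2 in either list, distinct peaks 4 to 5 and Vha genes with a summit near their own start 2 in either list, and the median percentile of signal, 37.2 in the conservative list, ran from 30.7 to 62.3. With the upper 50% of peaks by signal, 4 Vha genes (12.1%) and 1664 of all genes (11.9%) had a peak, with 1 Vha gene broadly used, with 4 distinct peaks and 2 genes near their own start. With ranked entries of −log10 IDR of at least 1, all genes with a peak numbered 4586 (32.8%, against 36.4% of Vha genes), with 5 broadly used Vha genes, 18 distinct peaks and 9 own-start genes. With summits in the body only, 2 Vha genes, 856 of all genes, 0 tissue-restricted genes and 2 distinct peaks were left, and with 500 bp around the body 1 tissue-restricted gene. Within 500 bp of an own start, 5 Vha genes, 1491 of all genes, 1 tissue-restricted gene and 6 peaks counted, and by nearest start 4, 1569, 0 and 4. The count by −log10 IDR alone, 10 genes, was added after seeing the data. The limits are 2 replicates, 1 group, whole embryos, no read totals and no input used here, so that a gene without a peak is not shown to lack binding.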
